A study of Rattus norvegicus with 10 samples.

Results

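The 9 genes described here carry out or serve glucose production, glucose uptake and fructose breakdown in the kidney: Pck1, Pc, Fbp1, G6pc, Slc37a4, Slc2a2, Slc5a2, Slc5a1 and Khk. They were taken by exact symbol from a deposited table of 32545 genes, and all 9 were found. G6pc named 2 rows, of which the one with the higher mean was used. The samples were kidney cortex of Dahl salt-sensitive rats (SS/JrHsdMcwi, genotype labelled wildtype), an inbred strain that becomes hypertensive on salt. In the oxonic acid group, 5 libraries came from rats fed 4% NaCl with 2% oxonic acid for 3 weeks. In the vehicle group, 5 libraries came from rats fed 4% NaCl for 3 weeks without it. Oxonic acid blocks uricase, which breaks down uric acid in rodents. All rats had telemeters implanted at 8 to 9 weeks of age and ate 0.4% NaCl beforehand. Both sexes were used and the labels do not give the sex of a library. They also do not tie each library to its own rat, so p-values cover only the spread among these samples, which can be technical in part.

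The proximal tubule is the main site of glucose production in the kidney and reclaims nearly all filtered glucose. Lactate, glutamine and glycerol enter gluconeogenesis there, and the final phosphatase step takes place in the endoplasmic reticulum. Filtered glucose crosses the apical membrane with sodium, mostly in the early segments and with the remainder taken up in the late segment, and leaves through the basolateral membrane. Fructose is phosphorylated in the same cells by ketohexokinase, a step without feedback control that can consume ATP and yield uric acid.

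Of the 9 genes, Slc2a2, the basolateral glucose transporter GLUT2, was the one whose groups did not overlap, with lower values in the oxonic acid libraries. Its mean was 49.8 ± 7.40 FPKM in the oxonic acid libraries and 65.9 ± 3.84 FPKM in the vehicle libraries (SD, n = 5 each), and it did not pass the test over all genes. The enzymes of glucose production (Pck1, Pc, Fbp1, G6pc) and the apical glucose transporters (Slc5a2, Slc5a1) overlapped between the groups, as did Slc37a4 and Khk. FPKM are fragment numbers scaled by gene length and by a library size that the study's authors set, so levels of different genes can be set side by side. In limma's test on log2(FPKM + 0.5), 0 of the 9 genes had an adjusted p under 0.05, where 0% of the 14508 genes tested did. At an unadjusted p under 0.05 there was 1 of the 9, Slc2a2, and 9.49% of all genes tested. limma's voom variant on recovered reads also called 0 of the 9. The median log2 difference, oxonic acid minus vehicle, was 0.05 over the 9 genes and 0.01 over all genes tested, with 7 of the 9 above 0 and 51.8% of all genes above 0.

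**Figure D1:**
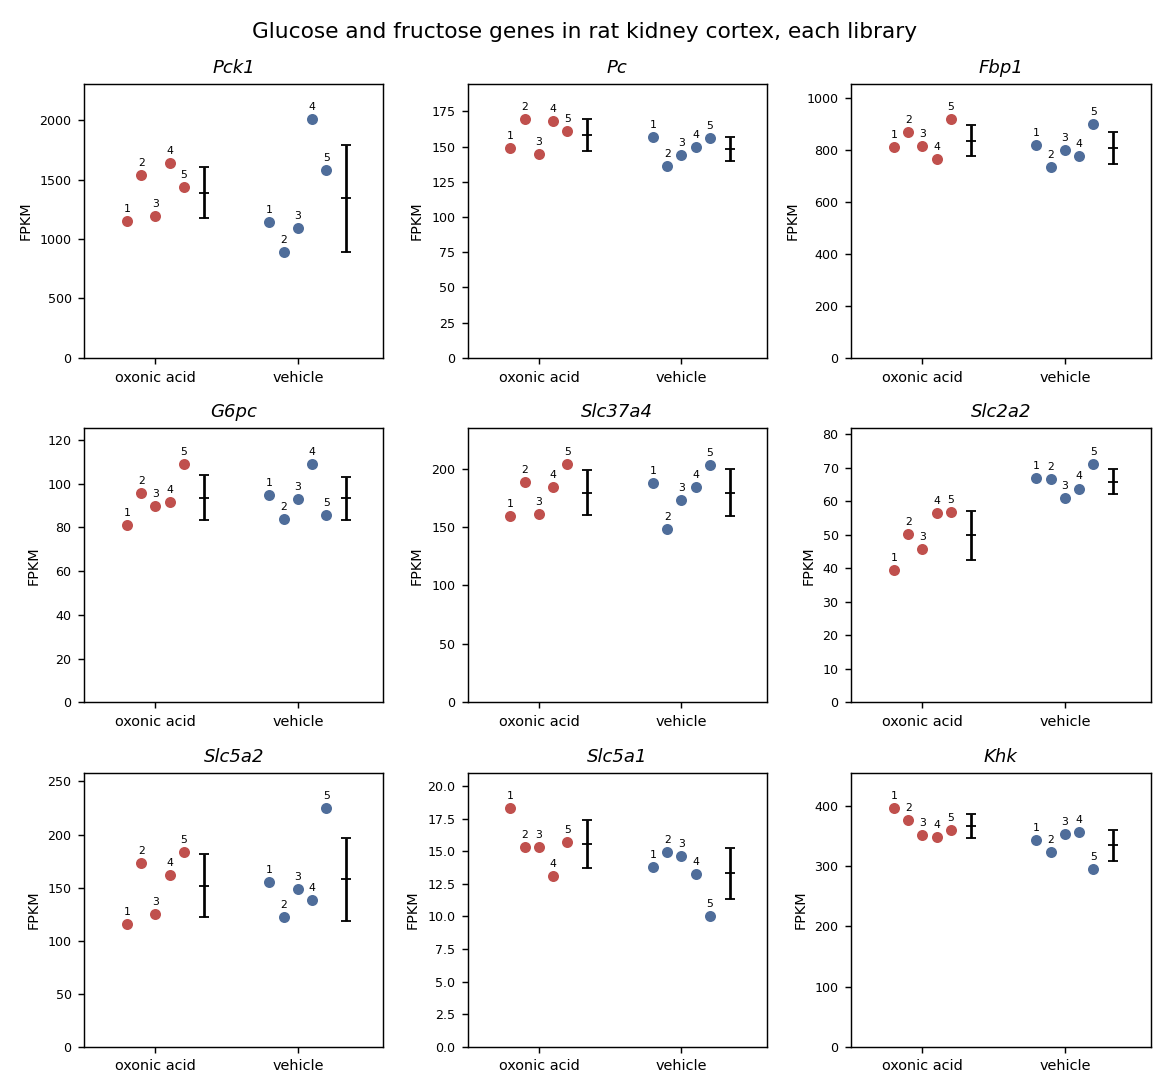
FPKM of each gene (vertical axis, from 0) in the 5 oxonic acid libraries (red) and the 5 vehicle libraries (blue). Numbers are library numbers, and black bars are the mean and SD. For Slc2a2 the highest oxonic acid value, 56.9 FPKM, lies below the lowest vehicle value, 60.9 FPKM, and the groups overlap for the other 8 genes.

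Between 14536674 and 18508428 reads per library fell in genes. Transcripts of the mitochondrial genome took 11.6% to 13.5% of these reads in the oxonic acid libraries and 9.23% to 12.1% in the vehicle libraries. The sample numbers fall into 3 runs, which the labels do not call batches. Oxonic acid libraries 1 to 3 make up run A, which has 0 vehicle libraries. Run B has 1 oxonic acid and 3 vehicle libraries, and run C has 1 oxonic acid and 2 vehicle libraries. Cortex markers were present in every library: the summed level of 12 early proximal tubule markers was 3387 to 4396 FPKM in oxonic acid libraries, against 3179 to 4437 FPKM in vehicle libraries. That of 5 podocyte markers was 92.4 to 127.7 FPKM in oxonic acid libraries, against 89.1 to 129.7 FPKM in vehicle libraries. The summed level of 6 markers of hepatocytes, another cell type with enzymes of glucose production, was 0.113 to 6.93 FPKM with oxonic acid. With vehicle it was 0.609 to 6.60 FPKM. The high ends were oxonic acid library 3 and vehicle library 2. In the other libraries the highest hepatocyte sum was 1.05 FPKM, in vehicle library 5.

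The order by mean FPKM over the 10 libraries was Pck1 (1366), Fbp1 (822), Khk (350), Slc37a4 (179), Slc5a2 (155), Pc (153), G6pc (93.3), Slc2a2 (57.9) and Slc5a1 (14.4). The ranges of Slc37a4, Slc5a2 and Pc overlapped one another, so their order is within the spread, and the lowest Pck1 value, 889.9 FPKM, was under the highest Fbp1 value, 919 FPKM. Within each of the 10 libraries Pck1 was above Fbp1. The ranges of the other neighbours in this order did not overlap. Among the 14508 genes tested, Pck1 ranked 33 by mean FPKM and Slc5a1 ranked 5203. Counting error is small beside these spreads, since the lowest read number behind any value was 477, for Slc5a1, and the next lowest 1676, for Slc2a2.

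The sequences just upstream of Slc2a2, Pck1 and G6pc are shown because Slc2a2 separated the groups, Pck1 varied most between libraries, and G6pc is the final step of the pathway. They are the 250 bases before the RefSeq start of each gene in build GRCr8, on the plus strand, at chr2:113540120-113540369 for Slc2a2, chr3:182348322-182348571 for Pck1 and chr10:86807409-86807658 for G6pc, which RefSeq names G6pc1. Capitals mark matches, on either strand, to the 7 motifs spelled out below.
Slc2a2: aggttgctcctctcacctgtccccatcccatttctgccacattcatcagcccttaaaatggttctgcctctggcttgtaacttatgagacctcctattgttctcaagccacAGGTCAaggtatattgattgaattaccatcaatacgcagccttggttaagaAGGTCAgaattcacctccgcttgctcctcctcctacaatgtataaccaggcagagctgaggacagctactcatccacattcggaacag
Pck1: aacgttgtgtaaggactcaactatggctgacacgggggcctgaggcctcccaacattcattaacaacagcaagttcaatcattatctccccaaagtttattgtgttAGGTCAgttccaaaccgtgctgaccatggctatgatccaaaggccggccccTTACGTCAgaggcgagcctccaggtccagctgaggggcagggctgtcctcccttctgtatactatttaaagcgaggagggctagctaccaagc
G6pc1: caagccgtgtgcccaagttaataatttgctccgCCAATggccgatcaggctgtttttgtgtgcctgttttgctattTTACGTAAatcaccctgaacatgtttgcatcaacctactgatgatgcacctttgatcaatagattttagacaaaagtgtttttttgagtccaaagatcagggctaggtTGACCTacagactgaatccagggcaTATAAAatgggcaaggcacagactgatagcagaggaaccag

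The motifs searched were elements known from promoters of hepatic or renal glucose genes and general promoter elements. Pck1 holds the cAMP response element TTACGTCA, which starts 93 bases before the gene's start, and 0.750% of the 33469 windows of this length in the table hold it. The shorter ACGTCA, which overlaps it, is in 6.95% of windows and also lies upstream of Slc37a4, in both of that gene's 2 entries. G6pc1 holds the related TTACGTAA, 174 bases before its start, a match found in 0.108% of windows. The nuclear receptor motif AGGTCA, in 14.1% of windows, occurs at 139 and 88 bases before the start of Slc2a2, once upstream of Pck1 (144 bases) and once upstream of G6pc1 (66 bases). The E box CACGTG (5.59%) lies upstream of Slc5a1, TATAAA (12.9%) upstream of G6pc1, and CCAAT (34%) upstream of G6pc1, Fbp1 and Slc5a2. A match only describes these letters. RefSeq windows were found for 8 of the 9 genes, all but Pc.

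Glucose production starts with Pc, pyruvate carboxylase, which makes oxaloacetate in mitochondria, and Pck1, the cytosolic phosphoenolpyruvate carboxykinase, which turns it into phosphoenolpyruvate. Pck1 (ENSRNOG00000028616, chromosome 3, 171213936 to 171219871; coordinates are those of the deposited table, with no build named) measured 1151, 1536, 1194, 1636 and 1437 FPKM in oxonic acid libraries 1 to 5. In vehicle libraries 1 to 5 it measured 1140, 889.9, 1092, 2006 and 1583 FPKM. Vehicle library 4 was the highest and vehicle library 2 the lowest of all 10, so the oxonic acid values lay inside the vehicle range. The log2 difference was 0.10 (SE 0.20, 95% interval -0.35 to 0.55, limma adjusted p = 0.892). That interval, a fold of 0.787 to 1.46, is the widest of the 9. Run B alone gave 0.66 and run C alone -0.31, so the direction was not the same in both runs.

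Pc (ENSRNOG00000019372, chromosome 1, 219759183 to 219859848) measured 149, 169, 145, 168 and 161 FPKM with oxonic acid, against 157, 136, 144, 149 and 156 FPKM with vehicle. Oxonic acid libraries 2, 4 and 5 were above every vehicle library, and libraries 1 and 3 were within the vehicle range. Its log2 difference was 0.09 (SE 0.06, 95% interval -0.04 to 0.23, limma adjusted p = 0.638). Pc overlaps Lrfn4 on the opposite strand, a gene with a mean of 3.64 FPKM.

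Fbp1, fructose-1,6-bisphosphatase, commits carbon to glucose against the direction of glycolysis. Fbp1 (ENSRNOG00000017597, chromosome 17, 396180 to 417480) measured 812, 870.0, 817, 768 and 919 FPKM in oxonic acid libraries 1 to 5, against 821, 736, 802, 778 and 900 FPKM in vehicle libraries 1 to 5. The 2 sets of values were intermingled. On the log2 scale the difference was 0.05 (SE 0.07, 95% interval -0.10 to 0.21, limma adjusted p = 0.827), which bounds the fold between 0.930 and 1.16.

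G6pc, the catalytic subunit of glucose-6-phosphatase, and Slc37a4, the transporter that brings glucose 6-phosphate to it inside the endoplasmic reticulum, form the last step. G6pc (ENSRNOG00000051171, chromosome 10, 89285855 to 89296213) measured 80.9, 95.9, 89.9, 91.8 and 109 FPKM with oxonic acid, against 94.6, 83.7, 93.1, 108.8 and 85.8 FPKM with vehicle. The means were 93.5 ± 10.2 FPKM in oxonic acid libraries, against 93.2 ± 9.88 FPKM with vehicle (SD, n = 5 each). Its log2 difference was 0.00 (95% interval -0.19 to 0.20, limma adjusted p = 0.994). A second row with the same symbol, ENSRNOG00000051344, starts at 89236256 on the same chromosome and measured 18.7 to 21.0 FPKM with oxonic acid, against 19.3 to 21.7 FPKM with vehicle. A further row, ENSRNOG00000053448, overlaps both on the same strand at a mean of 0.716 FPKM. The sources used here do not say how reads shared by these rows were assigned, so the level of G6pc is uncertain.

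Slc37a4 (ENSRNOG00000011361, chromosome 8, 48716939 to 48723024) measured 159, 188, 161, 184 and 204 FPKM with oxonic acid, against 188, 148, 173, 185 and 203 FPKM with vehicle. The groups covered almost the same range, 159 to 204 FPKM with oxonic acid, against 148 to 203 FPKM with vehicle. Its log2 difference was 0.00 (SE 0.09, 95% interval -0.21 to 0.21, limma adjusted p = 0.999). For G6pc and Slc37a4 the sign of this difference is negative when libraries are scaled to total reads, to TPM or to reads outside the mitochondrial genome. Slc37a4 overlaps a row named AC105645.2 on the same strand, with a mean of 3.89 FPKM.

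Slc2a2 carries glucose made or reclaimed by the early proximal tubule cell out to the blood side, and it is the glucose transporter of hepatocytes and, in rodents, of pancreatic beta cells. Slc2a2 (ENSRNOG00000011875, chromosome 2, 114413410 to 114445395) measured 39.6, 50.2, 45.8, 56.6 and 56.9 FPKM in oxonic acid libraries 1 to 5, against 67.1, 66.6, 60.9, 63.8 and 71.2 FPKM in vehicle libraries 1 to 5. Every oxonic acid library was below every vehicle library, a separation found in 1.91% of all genes tested in either direction and in 0.965% in this one. The log2 difference was -0.41 (SE 0.10, 95% interval -0.62 to -0.20), a fold of 0.752 with an interval of 0.650 to 0.870. With an unadjusted p of 0.00124 it ranked 48 of the 14508 genes tested, and its limma adjusted p of 0.333 did not pass.

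The lowest 3 values of Slc2a2 were those of oxonic acid libraries 1, 2 and 3, which form the run without a vehicle library. Within run B the log2 difference was -0.19 and within run C -0.24, each resting on 1 oxonic acid library. With the runs as a block in limma the difference was -0.22 (adjusted p = 0.741), and without libraries 1 to 3 it was -0.21 (adjusted p = 0.991). Over all alternatives run its adjusted p was 0.260 to 0.991. The oxonic acid libraries of runs B and C, 1 in each run, were below all 5 vehicle libraries, which the separation of the groups already requires.

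Marker lists were set beside Slc2a2. The summed early proximal tubule markers overlapped between the groups, with medians of 3986 FPKM with oxonic acid, against 3580 FPKM with vehicle, and 0 of these 12 genes passed. The ratio of Slc2a2 to Fbp1, both expressed in proximal tubule, was 0.0487 to 0.0738 with oxonic acid and 0.0759 to 0.0905 with vehicle, without overlap. The ratio of Slc2a2 to Slc5a2 was 0.290 to 0.366 with oxonic acid and 0.317 to 0.546 with vehicle, and here vehicle library 5 lay within the oxonic acid range. Summed markers of tubular injury (14 of 14 in the table) were 1028 to 1895 FPKM with oxonic acid, against 1722 to 3928 FPKM with vehicle. The lowest of these sums, 1028 and 1208 FPKM, were those of oxonic acid libraries 2 and 1, in run A, which has no vehicle library. In run B oxonic acid library 4 had 1895 FPKM, against 1932 to 3601 FPKM with vehicle. In run C oxonic acid library 5 had 1711 FPKM, against 1722 and 3928 FPKM with vehicle. Summed macrophage and leukocyte markers (10 of 10 in the table) were 124 to 163 FPKM with oxonic acid, against 166 to 219 FPKM with vehicle, without overlap. In these lists 13 of 14 and 9 of 9 tested genes had negative differences. None passed, where 0% of all genes tested did. An unadjusted limma p under 0.05 was found in 10 of 14 and 5 of 9, against 9.49% of all genes tested. The lists were chosen with earlier results of these data known, so these shares are not a test of the lists. In the lists of tubule segments, podocytes and endothelium most tested genes had positive differences, again with 0 genes passing. Positive differences were found in 10 of 12 early proximal markers (median log2 difference 0.05) and 10 of 12 late proximal markers (0.17). They were also found in 5 of 6 markers of the thick ascending limb (0.30) and 4 of 4 of the distal convoluted tubule (0.35). In the collecting duct 8 of 9 were positive (0.31), as were 4 of 5 for podocytes (0.29) and 4 of 4 for endothelium (0.21). The inner medulla and thin limb list had 5 of 6 (0.46). Its summed markers nonetheless had medians of 53.55 FPKM with oxonic acid, against 59.66 FPKM with vehicle. Only oxonic acid library 3 lay above the vehicle range of that sum. Oxonic acid library 1, the lowest for Slc2a2, had the highest thick ascending limb sum, 2895 FPKM, against 1384 to 2109 FPKM in the other oxonic acid libraries and 1194 to 1923 FPKM in the vehicle libraries. Oxonic acid library 3, the next lowest, had the highest inner medulla sum, 161 FPKM, against 40.9 to 72.5 FPKM in the other oxonic acid libraries and 53.1 to 94.9 FPKM in the vehicle libraries. Oxonic acid library 2, which follows for Slc2a2, had the lowest inner medulla sum of all, 40.9 FPKM. Its thick ascending limb sum of 1589 FPKM lay within the vehicle range. The highest late proximal sum was that of oxonic acid library 1, 9883 FPKM, against 4760 to 7923 FPKM with vehicle. The part of any of these lists in the Slc2a2 difference was not tested. In whole cortex, fewer cells of a type and less RNA per cell cannot be told apart.

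Apical glucose uptake is the work of Slc5a2 (SGLT2, high capacity, in the early segments) and Slc5a1 (SGLT1, high affinity, in the late segment). Slc5a2 (ENSRNOG00000020039, chromosome 1, 199682688 to 199688809) measured 116, 173, 125, 162 and 183 FPKM with oxonic acid, against 155, 122, 149, 138 and 225 FPKM with vehicle. Vehicle library 5 was the highest and oxonic acid library 1 the lowest, and the groups overlapped. The log2 difference was -0.05 (SE 0.17, 95% interval -0.42 to 0.33, limma adjusted p = 0.945). With the runs as a block it was 0.13, and without oxonic acid libraries 1 to 3 it was 0.16. Slc5a2 overlaps RGD1310127 on the opposite strand, a gene with a mean of 9.00 FPKM.

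Slc5a1 (ENSRNOG00000017775, chromosome 14, 82909981 to 82975263) measured 18.3, 15.3, 15.3, 13.1 and 15.7 FPKM in oxonic acid libraries 1 to 5. In vehicle libraries 1 to 5 it measured 13.8, 14.9, 14.7, 13.2 and 10.0 FPKM. Oxonic acid libraries 1, 2, 3 and 5 were above all 5 vehicle libraries, while oxonic acid library 4 was below all vehicle libraries but the last. For Slc5a1 the log2 difference was 0.22 (SE 0.11, 95% interval -0.03 to 0.47, limma adjusted p = 0.560). It was -0.13 in run B and 0.43 in run C. The difference was 0.13 without vehicle library 5, 0.13 with the runs as a block and 0.12 without oxonic acid libraries 1 to 3. The ratio of Slc5a2 to Slc5a1 was 6.34 to 12.3 with oxonic acid and 8.17 to 22.4 with vehicle, with medians of 11.3 with oxonic acid and 10.4 with vehicle.

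Khk, ketohexokinase, phosphorylates fructose. Khk (ENSRNOG00000008047, chromosome 6, 26810579 to 26820959) measured 395, 376, 351, 348 and 360.0 FPKM with oxonic acid, against 343, 324, 352, 357 and 295 FPKM with vehicle. All 5 oxonic acid libraries were above the vehicle median of 343 FPKM, yet oxonic acid libraries 3 and 4 were within the vehicle range. The log2 difference was 0.13 (SE 0.06, 95% interval -0.01 to 0.28, limma adjusted p = 0.538), a fold between 0.994 and 1.21. The table has 1 value per gene, so the splice forms of Khk (KHK-A and KHK-C), which differ in affinity for fructose, are added together.

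**Figure D2:**
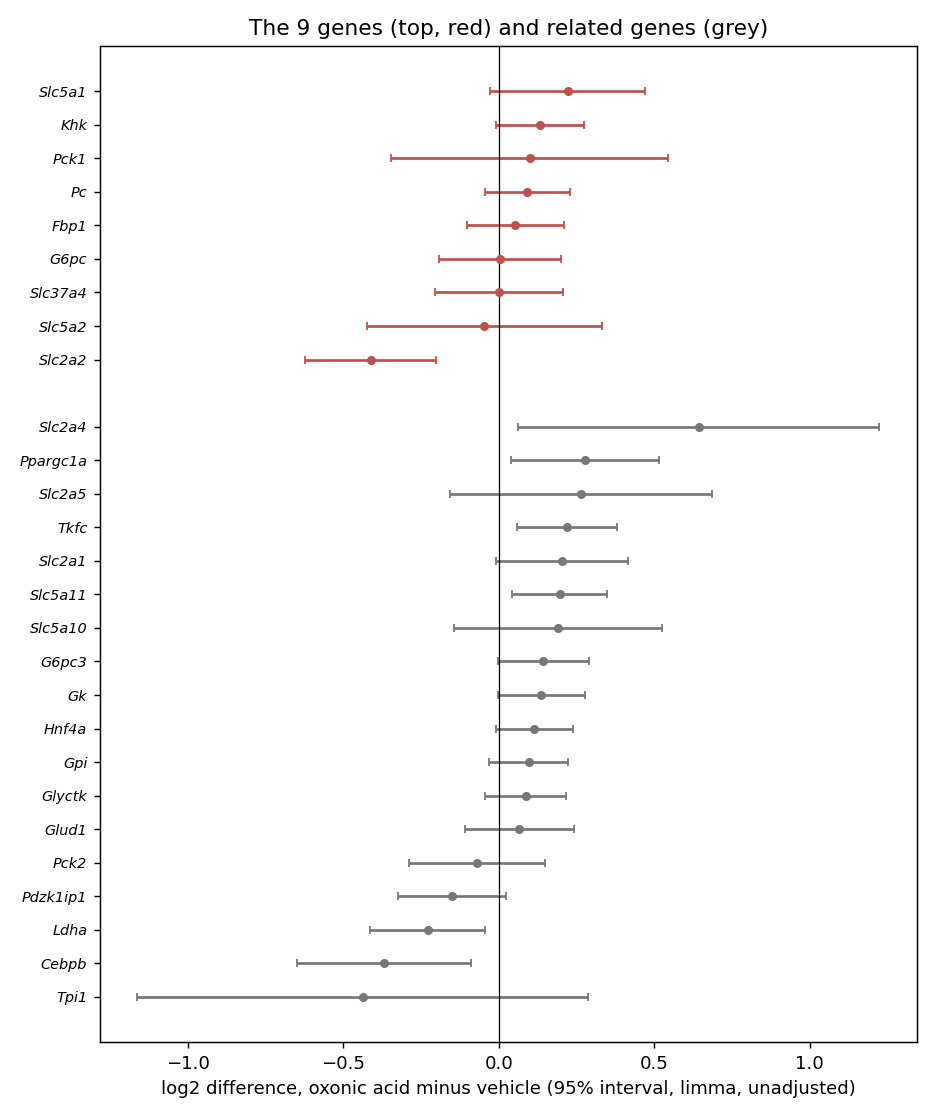
Log2 difference, oxonic acid minus vehicle (horizontal axis), with its unadjusted 95% interval from limma, for the 9 genes (red) and related genes (grey). The Slc2a2 interval, -0.62 to -0.20, lies below 0, and the intervals of the other 8 genes include 0.

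Related genes were read from 5 lists of the same pathways, 73 symbols in all, of which 69 were tested. None passed in limma (0 of 69), and 9 had an unadjusted p under 0.05, which is 13.0% against 9.49% of all genes tested. The groups did not overlap in 2 of the 69 (2.90%, against 1.91% of all genes), among them Ldha. Their median log2 difference was 0.06, against 0.01 over all genes tested.

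In the list of the remaining gluconeogenic and reversible steps, 0 of 12 tested genes passed in either direction (median log2 difference 0.03). Pck2, the mitochondrial carboxykinase, measured 12.6 ± 1.16 FPKM with oxonic acid, against 13.3 ± 1.94 FPKM with vehicle (SD, n = 5 each). G6pc3, the widely expressed phosphatase paralogue, measured 25.1 ± 2.16 FPKM with oxonic acid, against 22.6 ± 1.38 FPKM with vehicle (limma adjusted p = 0.530). Gpi, glucose-6-phosphate isomerase, measured 259 ± 19.8 FPKM with oxonic acid, against 242 ± 8.43 FPKM with vehicle (limma adjusted p = 0.605), and Tpi1, triosephosphate isomerase, 6.02 ± 2.55 FPKM with oxonic acid, against 7.48 ± 0.73 FPKM with vehicle (limma adjusted p = 0.678), with an uncertain level because a similar gene has a row of its own. G6pc2 was not tested because its mean was below 0.5 FPKM.

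Of the fructose and triose list, 0 of 9 genes passed and 7 of 9 had positive differences (median 0.09). Tkfc, the triokinase that acts downstream of Khk, measured 227 ± 13.9 FPKM with oxonic acid, against 196 ± 18.5 FPKM with vehicle (SD, n = 5 each), a log2 difference of 0.22 (limma adjusted p = 0.402), and its lowest oxonic acid value, 213 FPKM, was just under its highest vehicle value, 214 FPKM. The fructose transporter Slc2a5 measured 24.7 ± 5.38 FPKM with oxonic acid, against 20.7 ± 4.97 FPKM with vehicle. The sodium-coupled mannose and fructose transporter Slc5a10 measured 90.4 ± 11.5 FPKM with oxonic acid, against 80.4 ± 18.1 FPKM with vehicle. The Tkfc interval, 0.06 to 0.38, lay above 0 before adjustment, but none of these genes passed the adjustment over all genes, nor did the glycerate kinase Glyctk (191 ± 12.7 FPKM with oxonic acid, against 179 ± 9.88 FPKM with vehicle).

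Of the other glucose transporters and partners, 0 of 7 tested genes passed and 6 of 7 had positive differences (median 0.20). Slc2a1 (GLUT1), the basolateral transporter of later segments, measured 18.5 ± 2.66 FPKM with oxonic acid, against 16.0 ± 1.53 FPKM with vehicle (SD, n = 5 each; limma adjusted p = 0.536), so its difference had the opposite sign to that of Slc2a2. Slc2a4 (GLUT4) was scarce, at 2.60 ± 1.10 FPKM with oxonic acid, against 1.44 ± 0.50 FPKM with vehicle. The inositol transporter Slc5a11 measured 30.0 ± 1.85 FPKM with oxonic acid, against 26.2 ± 2.31 FPKM with vehicle. Pdzk1ip1 (MAP17), an activating partner of SGLT2, measured 444 ± 26.6 FPKM with oxonic acid, against 495 ± 54.5 FPKM with vehicle (limma adjusted p = 0.566).

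Genes that supply precursors did not pass either (0 of 22, median log2 difference 0.03). Ldha, the lactate dehydrogenase subunit typical of glycolytic cells, measured 162.9 to 192.8 FPKM with oxonic acid, against 193.1 to 258 FPKM with vehicle. Its groups met without overlapping, with a log2 difference of -0.23 (limma adjusted p = 0.445). Glud1, glutamate dehydrogenase, measured 361 ± 19.4 FPKM with oxonic acid, against 346 ± 42.0 FPKM with vehicle (SD, n = 5 each). Gk, glycerol kinase, measured 57.6 ± 3.78 FPKM with oxonic acid, against 52.4 ± 3.87 FPKM with vehicle.

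Among 20 regulators of these genes, 0 passed, 15 had positive differences and the median log2 difference was 0.10. Hnf4a, a nuclear receptor of proximal tubule cells, measured 218 ± 13.8 FPKM with oxonic acid, against 201 ± 9.26 FPKM with vehicle (SD, n = 5 each), a log2 difference of 0.11 (limma adjusted p = 0.541). The coactivator Ppargc1a measured 14.8 ± 2.12 FPKM with oxonic acid, against 12.1 ± 1.58 FPKM with vehicle (SD, n = 5 each; limma adjusted p = 0.473). The transcription factor Cebpb measured 46.0 ± 6.84 FPKM with oxonic acid, against 59.7 ± 10.3 FPKM with vehicle (limma adjusted p = 0.414).

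**Figure D3:**
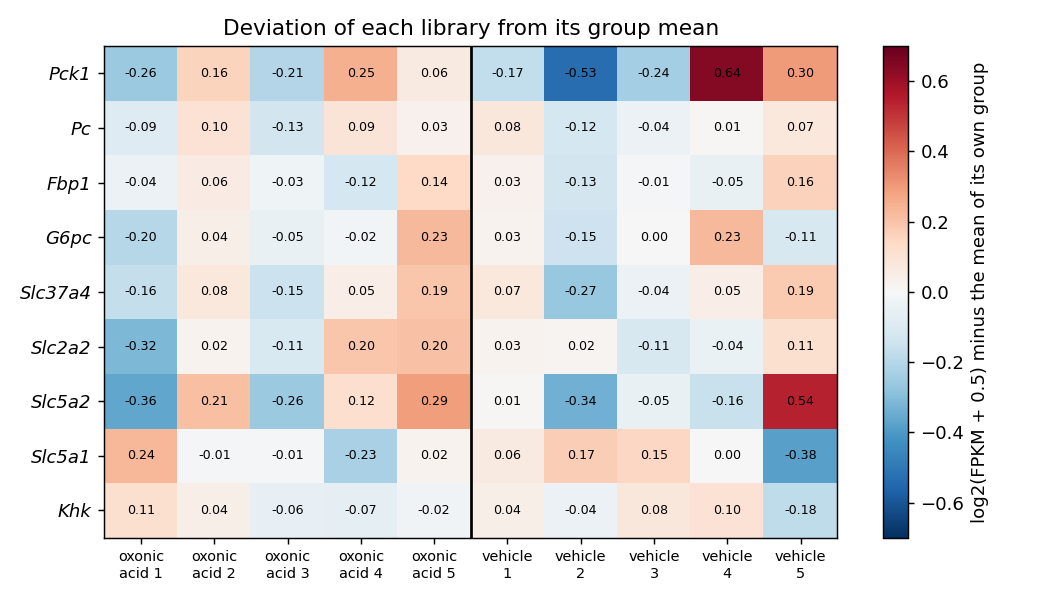
Deviation of log2(FPKM + 0.5) in each library (columns, oxonic acid left of vehicle) from the mean of its own group, for each of the 9 genes (rows). Oxonic acid library 3 lies below its group mean for all 9 genes, and vehicle library 5 stands at 0.54 for Slc5a2 and at -0.38 for Slc5a1.

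Deviations from the group mean were shared by several of the genes in some libraries. Oxonic acid library 3 was below its group mean in 9 of 9 genes, and oxonic acid libraries 2 and 5 were above it in 8 of 9. Vehicle library 2 was below its group mean in 7 of 9, and vehicle library 1 above it in 8 of 9. Such counts were not made over all genes, so a shift of the whole library cannot be told apart from one of these genes. Of the 36 pairs of genes, 23 had a positive correlation of these deviations over the 10 libraries, with Pearson's r between -0.77 and 0.90.

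With the 36 pairs, 27 relations to 3 marker lists (early proximal, late proximal and tubular injury) were computed, and p-values were adjusted over all 63. Slc5a2 followed the summed early proximal markers, with r = 0.97 (two-sided exact permutation within groups, p = 0.000208, adjusted p = 0.0131) and Spearman's rho = 0.96 (exact permutation p = 0.000208, adjusted p = 0.0131). Without the 2 libraries farthest from the median of the gene named first, here and below, r was 0.95. It was the 1 relation of the 63 to pass by r. Slc37a4 had r = 0.92 with the same list (exact permutation p = 0.00236, adjusted p = 0.0627; rho = 0.93, p = 0.00153, adjusted p = 0.0481; r = 0.85 without 2 libraries), so it passed by rank alone. The runs hold 3 or 4 libraries each, too few for a correlation. All points share the library and its scaling.

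Pairs with the largest positive r were Slc37a4 with Slc5a2 (r = 0.90, exact permutation p = 0.00299, adjusted p = 0.0627; rho = 0.92, p = 0.00250, adjusted p = 0.0525) and Pc with Slc37a4 (r = 0.86, p = 0.00639, adjusted p = 0.0678; rho = 0.71, p = 0.0436, adjusted p = 0.133). They stood at 0.86 and 0.73 without the 2 farthest libraries. The most negative pair was Slc5a2 with Slc5a1 (r = -0.77, exact permutation p = 0.0322, adjusted p = 0.104; rho = -0.65, p = 0.0599, adjusted p = 0.152). Its r was -0.43 without the 2 libraries farthest from the median for Slc5a2. Leaving those out narrows the range of Slc5a2, so the change does not show what the relation rests on. Within the groups r was -0.54 with oxonic acid and -0.92 with vehicle. Slc5a1 had r = 0.82 with the summed late proximal markers (exact permutation p = 0.0308, adjusted p = 0.104; rho = 0.79, p = 0.0294, adjusted p = 0.133), and r = 0.75 without 2 libraries. None of the 36 pairs passed.

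**Figure D4:**
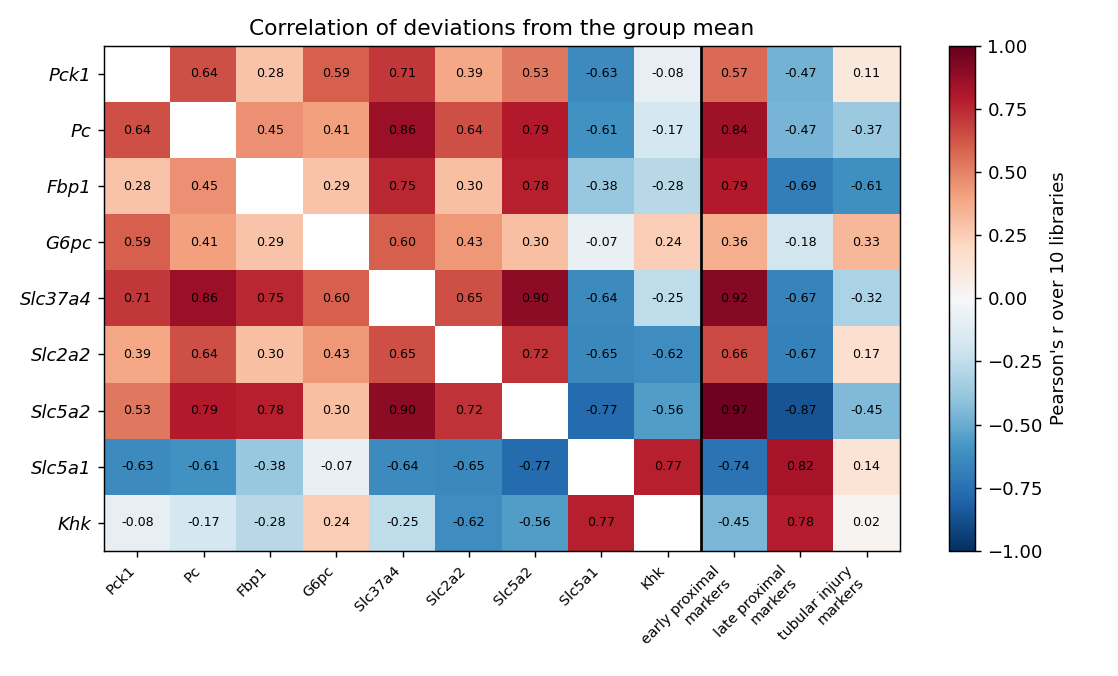
Pearson's r, over the 10 libraries, of deviations from the group mean (log2 scale) between the 9 genes and, right of the line, with the summed levels of 3 marker lists. Slc5a2 and the early proximal markers have r = 0.97. Slc5a1 and Khk have negative r with that list, and neither passed (exact permutation, adjusted p = 0.104 and 0.370). For Khk r was -0.45, and 0.20 without the 2 libraries farthest from the median.

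For Slc2a2 the largest r of the 3 lists in size was that with the late proximal markers, and it was negative (r = -0.67, exact permutation p = 0.0102, adjusted p = 0.0919; rho = -0.70, p = 0.0222, adjusted p = 0.127; r = -0.45 without 2 libraries). With the early proximal markers it was positive (r = 0.66, exact permutation p = 0.0347, adjusted p = 0.104; rho = 0.68, p = 0.0465, adjusted p = 0.133; r = 0.49 without 2 libraries). With the injury markers it had r = 0.17 (exact permutation p = 0.626, adjusted p = 0.689; rho = -0.12, p = 0.743, adjusted p = 0.767; r = -0.09 without 2 libraries).

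The genes most like each of these were found among 11877 genes by r of the same deviations over 10 libraries, a ranking that carries no test. For Slc5a2 they were Glb1 (r = 0.99), Cyp2c23 (r = 0.99) and Scpep1 (r = 0.98), and for Slc5a1 Mbl1 (0.94), Lactb2 (0.93) and Asph (0.92). For Pck1 they were Cebpg (0.98), Erf (0.98) and Atp6v0c (0.96). For Pc they were Cluh (0.96), Dmxl2 (0.92) and Gramd4 (0.92), and for Fbp1 Psat1 (0.97), Scly (0.97) and A330050F15Rik (0.96). For G6pc they were Med9 (0.96), Nae1 (0.91) and Tk2 (0.91), and for Slc37a4 Shmt2 (0.96), Pde9a (0.96) and Acsm1 (0.96). For Khk they were Hgd (0.96), Cisd1 (0.93) and Anpep (0.93), and for Slc2a2 Crbn (0.98), the repeated small nuclear RNA U7 (0.96) and Fgf1 (0.95). Beside -0.41 for Slc2a2, the log2 difference was 0.02 for Crbn, -1.40 for that U7 row (ENSRNOG00000056800, limma adjusted p = 0.454) and -0.06 for Fgf1. Several rows of the table carry the name U7, so the value of that row is uncertain.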

How the data were processed

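The authors deposited FPKM per gene and library, scaled by a library size of their own. That size was 0.9775 to 1.006 of the reads summed here in the oxonic acid libraries, and 0.9968 to 1.038 in the vehicle libraries. Per the submitters' processing notes, the tools were HISAT2 2.0.5, featureCounts 1.5.0-p3, StringTie 1.3.3b and fastp; no genome build is named in the sources used here. Whole reads were recovered from FPKM and gene length (100% of values within 0.01 of a whole read). Genes with a mean of at least 0.5 FPKM were tested on log2(FPKM + 0.5) with limma 3.58.1 (trend) in R 4.3.3, two-sided, with Benjamini-Hochberg adjustment over 14508 genes and a threshold of 0.05. The pseudocount understates changes of low genes. The code was tested on simulated data. The 9 genes and the lists were chosen with earlier results of these data known. The text names the 9 genes, 13 fixed genes, the 3 genes of each related list with the smallest p, and the 3 genes most like each of the 9. Some genes these rules name are not reported here, though counts and medians include them. Marker lists are given as sums, in which abundant genes such as Kap (late proximal) and Spp1 (tubular injury) weigh most. Promoters are from RefSeq (GRCr8). Python 3.11.15 with matplotlib 3.10.9 drew the figures.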

Additional observations from a re-analysis of the deposited data

Results flagged for a closer look

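A check for a single library far from the 4 others of its group, made on 64 groups of values (about 5% flag by chance), picked out 2. G6pc3 measured 28.8 FPKM in oxonic acid library 1, against 23.4 to 24.9 FPKM in the other 4 oxonic acid libraries. Tpi1 measured 1.57 FPKM in oxonic acid library 2, against 6.59 to 8.07 FPKM in the other 4. A row the table describes as triosephosphate isomerase-like, LOC100911515, measured 162 FPKM in that same library, against 37.2 to 74.2 FPKM in the other 4 oxonic acid libraries and 28.9 to 96.1 FPKM in the vehicle libraries. Sharing of reads between these 2 rows was not tested. The Tpi1 log2 difference was -0.44, and -0.06 without oxonic acid library 2.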

How the results depend on the processing

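Under all 21 alternatives run (pseudocount, filter, scaling, voom, blocks, libraries left out), 0 of the 9 genes passed, and Slc2a2 kept a negative difference, from -0.46 to -0.21. Because the Slc2a2 groups do not overlap, leaving libraries out or changing the pseudocount or filter could not turn that sign. The count of genes called was 0 to 1 with a library left out (1, SNORA3, without vehicle replicate 1) and 0 otherwise. The median of the 9 ranged from -0.03 (without vehicle replicate 2) to 0.09 with a library left out, and was 0.10 with sample-number runs as a block and 0.12 without oxonic acid libraries 1 to 3. The replicate numbers pair no animals in the labels, same-numbered libraries had deviations correlated from -0.01 to 0.20, and 1 of 5 oxonic acid libraries correlated best with its own number; with the replicate block 0 genes passed and Slc2a2 was at -0.41 (limma adjusted p = 0.323). Signs turned for 4 genes near 0. Slc37a4 was at -0.0332, -0.0241 and -0.0107, and G6pc at -0.0299, -0.0208 and -0.00745, when scaled to total reads, to TPM and to reads outside the mitochondrial genome. G6pc was at -0.0103 with both its rows added together, and Slc5a2 at 0.13 with sample-number runs as a block and 0.16 without oxonic acid libraries 1 to 3. Adding the G6pc rows and leaving out libraries 1 to 3 together were alternatives chosen after seeing the data. With a library left out, Slc37a4 ranged from -0.0660 to 0.0471, G6pc from -0.0528 to 0.0610, Slc5a2 from -0.131 to 0.0886, Slc5a1 from 0.126 to 0.278 and Pck1 from -0.0333 to 0.260. The cause was not tested. Of the 31 genes of these pathways tested this way, 0 reached the threshold under any alternative. With 5 libraries a group, the width of each gene's interval limits the precision of its difference.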
